A study of Mus musculus with 6 samples.

Results

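The histone genes were followed in Ly6D-negative common lymphoid progenitors (CLPs), marrow precursors of the lymphocyte lineages. Members were all genes whose symbol belongs to the H1f, H2ac, H2bc, H3c, H4c, H2ax, H2az or H3f series, without pseudogenes. Of 22180 genes with a probe set of their own, 32 were histone genes. They comprised 8 H1, 9 H2A, 8 H2B and 7 H4 genes, and 0 H3 genes had a probe set of their own. By use, 23 were replication-dependent, 4 were replacement histones and 5 were germline forms. A further 40 histone genes, all H3 genes with a probe set among them, were listed on probe sets that name several genes, and these are described as shared probe sets without a gene name.

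The control group held 3 samples from OcnCre-;iDTR+/- mice and the mutant group 3 samples from OcnCre+;iDTR+/- mice, with 1 array for each sample. In the mutant, Cre made under the osteocalcin (Ocn) promoter switches on a diphtheria toxin receptor, so that toxin deletes osteocalcin-expressing bone cells, while the profiled progenitors come from the same marrow. Mice of both genotypes received diphtheria toxin each day for 4 weeks, and progenitors were sorted the day after the last dose from adults of 6 to 8 weeks. The comparison asks how histone transcripts of the progenitors differ once osteocalcin-expressing cells have been deleted. Whether replicates were separate mice or pools is not given in the labels, so p-values cover only the spread among these samples. The precision is limited by having 3 arrays in each group.

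Histones package DNA. Pairs of H2A, H2B, H3 and H4 form the nucleosome core, and H1 binds the linker DNA between cores. Replication-dependent histone genes lie in clusters, are transcribed in S phase, and most of their messages end in a stem-loop that is bound by the protein Slbp instead of a poly(A) tail. Replacement histones such as H2A.X, H2A.Z and H3.3 are made outside S phase as well, and H2A.X is the form that is phosphorylated at DNA breaks. In lymphoid progenitors, as in other dividing cells, the level of replication-dependent histone messages is known to follow the share of cells in S phase.

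RefSeq promoter sequences (build GRCm38.p6) were found for 29 of the 32 genes. Those of 6 genes on which the results below turn are shown, as the 150 bases before the annotated start, because the classes differ in known promoter elements. Capitals mark the CCAAT box, a TATA box written as TATAAA, the H1 element AAACACA and the octamer ATTTGCAT, each on either strand, and no matches overlapped in these windows.
H1f2 (chr13:23738657-23738806, plus strand): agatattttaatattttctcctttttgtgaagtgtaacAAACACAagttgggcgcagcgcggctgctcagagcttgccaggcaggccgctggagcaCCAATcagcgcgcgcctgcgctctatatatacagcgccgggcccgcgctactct
H1f5 (chr13:21780626-21780775, minus strand): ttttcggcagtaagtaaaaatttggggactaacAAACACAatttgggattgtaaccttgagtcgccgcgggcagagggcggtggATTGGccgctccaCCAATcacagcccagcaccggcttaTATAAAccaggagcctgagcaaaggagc
H2ac15 (chr13:21753913-21754062, minus strand): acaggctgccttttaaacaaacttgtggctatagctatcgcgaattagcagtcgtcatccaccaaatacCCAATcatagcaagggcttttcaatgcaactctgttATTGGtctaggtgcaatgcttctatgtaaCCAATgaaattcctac
H2ac20 (chr3:96220881-96221030, minus strand): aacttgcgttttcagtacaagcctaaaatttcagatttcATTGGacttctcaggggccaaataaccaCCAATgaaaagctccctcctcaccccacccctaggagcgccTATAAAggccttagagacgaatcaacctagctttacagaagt
H2bc3 (chr13:23746584-23746733, plus strand): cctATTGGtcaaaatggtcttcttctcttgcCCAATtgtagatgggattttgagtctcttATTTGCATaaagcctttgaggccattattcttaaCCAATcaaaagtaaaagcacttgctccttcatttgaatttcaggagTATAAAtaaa
H4c12 (chr13:21750554-21750703, minus strand): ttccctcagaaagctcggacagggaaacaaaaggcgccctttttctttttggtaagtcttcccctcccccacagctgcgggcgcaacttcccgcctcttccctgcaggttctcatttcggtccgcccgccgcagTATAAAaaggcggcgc

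Over the whole window of 300 bases, which runs from 250 before to 50 after the start, CCAAT was present in 4 of 4 replication-dependent H1, 5 of 5 H2A, 6 of 6 H2B and 1 of 6 H4 promoters, against 37.4% of all 32851 promoters in the table. The H1 element was present in 3 of 4 H1 promoters, against 7.18% of all. The octamer was present in 4 of 6 H2B and 2 of 5 H2A promoters, against 1.74% of all. TATAAA was present in 16 of 29 histone promoters, against 13.6% of all. These matches describe the letters and are not evidence of binding.

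Values are log2 probe set intensities after RMA, an Affymetrix method that makes the arrays' distributions alike and gives no detection call. Mutant replicate 2 stood apart from the other arrays (r = 0.935 to 0.954 over probe sets, against 0.973 to 0.989 among the other 5). Bright genes were lower on part of the mutant arrays: the median of the brightest 10% of tested genes, relative to the control mean, was −0.42 on mutant replicate 2, −0.18 on mutant replicate 3 and −0.00 on mutant replicate 1. Control replicate 1 and mutant replicate 3 also had low values of the Y-linked gene Eif2s3y, at 4.88 and 4.77, against 7.31 to 7.85 on the other 4 arrays. The X-linked gene Xist was high on the same arrays, at 11.04 and 10.72, against 5.57 to 8.07 on the other 4. The CLP marker gene Il7r, which encodes the interleukin-7 receptor, had a control mean of 10.11 and a mutant mean of 9.76. The labels also give the tissue as stromal, and 6 of 9 listed bone and stroma genes were above the level required for testing (4.84). Their control means ran from 5.15 for Bglap, the osteocalcin gene, to 8.01 for the alkaline phosphatase gene Alpl, while Kitl and Ibsp were below that level. The neutrophil gene S100a8 had means of 11.69 (control) and 11.82 (mutant), although the sort was for lymphoid progenitors. In bulk samples, fewer cells of a type and less RNA per cell cannot be told apart.

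At an adjusted p of 0.05 in limma, 0 histone genes passed, as did 0% of the 13308 genes tested. The largest differences were lower mutant means in the H2A gene H2ac20, the linker gene H1f2 and the H2A gene H2ac15. In these 3 genes the mutant arrays were spread more widely than the controls, and the H1 genes H1f1, H1f2, H1f3 and H1f5 each had their lowest value on mutant replicate 3. A few members, H2bc3, H2bc9 and H2ac10, had their highest value on mutant replicate 2 instead, and H4c12 was near the same level on all arrays.

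Of the 32 genes, 22 were bright enough to be tested. A lower mutant mean was found in 15 of 22, against 57.5% of all genes tested. In limma, 3 of 22 had an unadjusted p under 0.05 (8.03% of all genes tested), all with a lower mutant mean (6.02% of all), and 0 of 22 had a higher one (2.01%). The 3 mutant values all lay below the 3 control values for 1 of 22, H1f2 (9.99% of all genes tested), and above them for 0 of 22 (5.4%). With array weights, which let arrays close to their group mean count for more, 9 members passed, all lower, but 22.2% of all genes tested passed in that fit.

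Linker histones of the replication-dependent kind had lower mutant means in 4 of 4 genes, with a median difference of −0.49. H1f2, which encodes one of the widely used linker histones, had control values of 7.97, 8.00 and 7.97 and mutant values of 7.93, 6.70 and 6.52, here and below in the order of replicate number. The controls were nearly identical and mutant replicate 1 was just below them, whereas mutant replicates 2 and 3 were both far lower. The difference was −0.93 ± 0.33 (SE), with control values of 7.98 ± 0.02 and mutant values of 7.05 ± 0.77 (SD, n = 3 each). The adjusted p was 0.594 in limma (0.00792 to 0.886 over the alternatives). The low ends of these ranges, here and below for H2ac20, H2bc21 and H2ax, came from the fit with array weights. In that fit mutant replicate 3 had the largest weight (5.20), and 22.2% of all genes tested passed. Without mutant replicate 1 the difference was −1.37 and passed (adjusted p = 0.0374 in limma), as did 0.0301% of all genes tested in that fit.

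H1f5, another linker histone of dividing cells, was at 10.27, 10.85 and 10.69 in controls and at 10.29, 11.18 and 9.21 in mutants. Here mutant replicate 2 was the highest of the 6 arrays and mutant replicate 3 the lowest, so the groups overlapped. The difference was −0.37 ± 0.44 (SE; adjusted p = 0.744 in limma), and it took the other sign, 0.14, without mutant replicate 3. H1f1 stood at 5.90, 6.73 and 6.46 in controls and at 6.06, 6.47 and 4.75 in mutants. It too was low on mutant replicate 3, and the difference of −0.60 ± 0.42 became −0.10 without that array and −0.96 without mutant replicate 2. H1f3 was at 5.42, 5.66 and 5.39 in controls and at 5.56, 5.15 and 5.08 in mutants, where mutant replicates 2 and 3 were below all controls. Its difference was −0.23 ± 0.16, and −0.37 without mutant replicate 1.

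**Figure D1:**
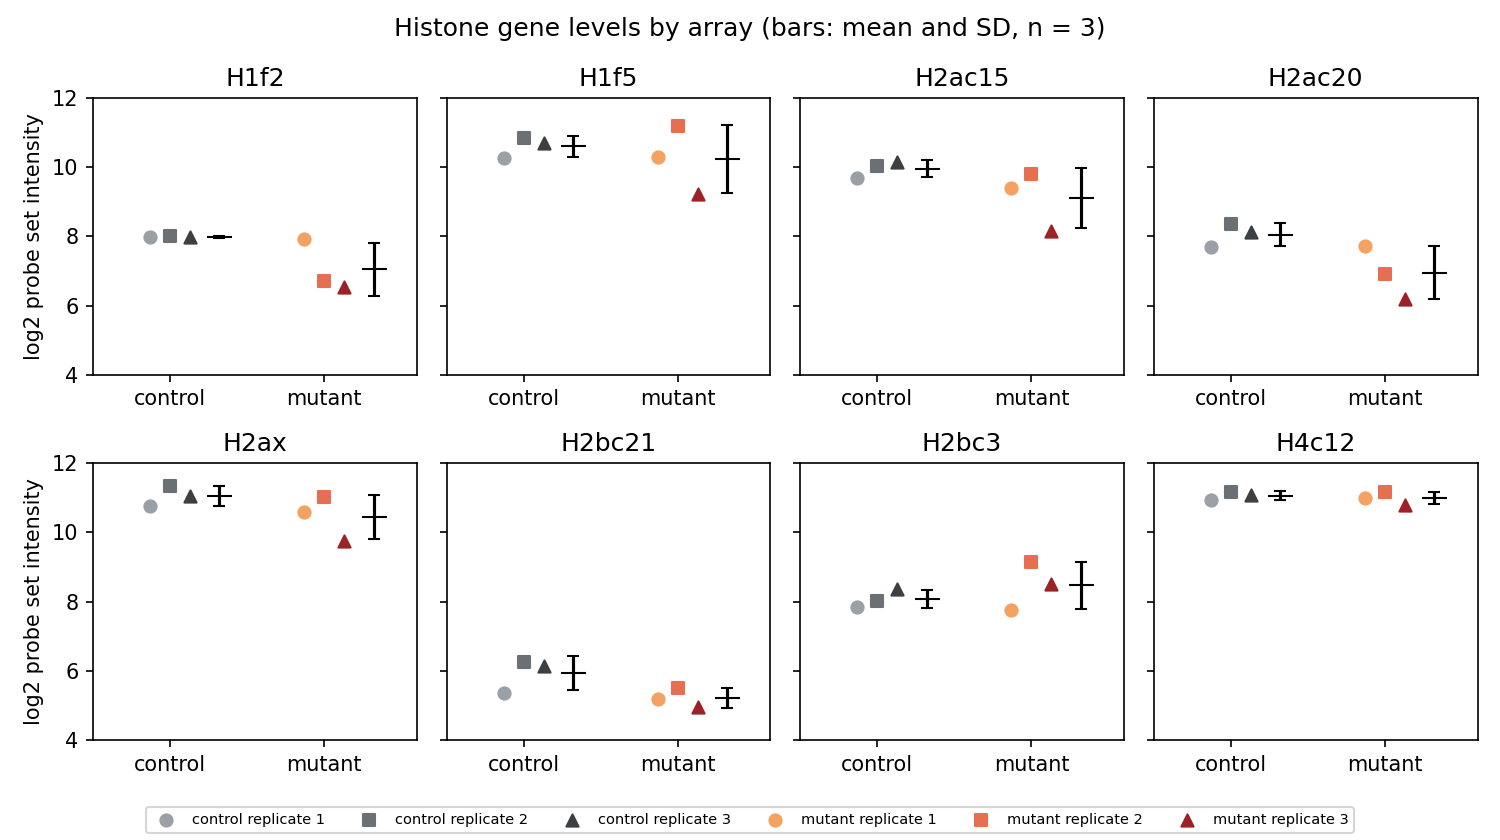
Log2 probe set intensity of 8 histone genes on each array, with the mean and SD of each group (n = 3) as bars beside the points. H1f2 and H2ac20 are low on mutant replicates 2 and 3, H1f5, H2ac15 and H2ax on mutant replicate 3, and H4c12 lies between 10.80 and 11.16 on all arrays.

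Core histone genes of the H2A class were divided. Of 4 tested replication-dependent members 2 had lower and 2 had higher mutant means, with a median of −0.39. H2ac20 was at 7.68, 8.35 and 8.12 in controls and at 7.73, 6.92 and 6.19 in mutants. Mutant replicate 1 lay within the controls and the other mutants below them. The difference, −1.10 ± 0.36 (SE), was the largest of all members (adjusted p = 0.594 in limma; 0.00792 to 0.886 over the alternatives). H2ac15 was at 9.68, 10.02 and 10.16 in controls and at 9.40, 9.80 and 8.15 in mutants, a difference of −0.84 ± 0.38 that became −0.35 without mutant replicate 3. Mutant replicate 2 lay within the control range of H2ac15, so the low value of the group rested mainly on mutant replicate 3.

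H2ac10 ran the other way, at 9.73, 10.05 and 10.11 in controls and at 10.09, 10.83 and 9.90 in mutants. Mutant replicate 2 was the highest array and the other mutants lay within the controls. The difference was 0.31 ± 0.24 (adjusted p = 0.646 in limma), and 0.03 without mutant replicate 2. H2ac21, the 1 member with several probe sets, differed by 0.05 ± 0.19, and by −0.10 without mutant replicate 1 and −0.07 without control replicate 3.

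Core histone genes of the H2B class leaned lower in 4 of 6 tested members, with a median of −0.17. H2bc21, which is also transcribed in non-dividing cells, was at 5.36, 6.26 and 6.15 in controls and at 5.19, 5.51 and 4.95 in mutants. Control replicate 1 lay within the mutants, which were otherwise all below the other controls. The difference was −0.70 ± 0.25 (SE; adjusted p = 0.594 in limma; 0.00848 to 0.886 over the alternatives), and it was −0.57 to −0.85 without any 1 mutant array and −0.99 without control replicate 1. H2bc18 was at 7.26, 7.29 and 7.10 in controls and at 7.25, 7.34 and 6.53 in mutants, so that mutant replicate 3 alone was low; without it the difference of −0.17 ± 0.21 became 0.08. H2bc22 (−0.25 ± 0.26) and H2bc12 (−0.16 ± 0.16) were low on mutant replicate 2 instead, and without that array they were at −0.02 and 0.00.

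H2bc3 and H2bc9 were highest on mutant replicate 2. H2bc3 was at 7.86, 8.02 and 8.37 in controls and at 7.76, 9.14 and 8.50 in mutants, with mutant replicates 2 and 3 above all controls. Its difference of 0.38 ± 0.32 (adjusted p = 0.66 in limma) became 0.05 without mutant replicate 2 and 0.74 without mutant replicate 1. H2bc9 was at 5.18, 5.97 and 5.39 in controls and at 4.81, 6.73 and 5.72 in mutants, where mutant replicate 1 was the lowest array and mutant replicate 2 the highest. Its difference of 0.24 ± 0.44 became −0.24 without mutant replicate 2.

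The 2 tested H4 genes showed no common direction, with a median of 0.01. H4c12 was at 10.93, 11.16 and 11.10 in controls and at 11.00, 11.16 and 10.80 in mutants, a difference of −0.07 ± 0.14 (adjusted p = 0.842 in limma). Mutant replicate 3 lay just below all controls and the other mutants within them, and the sign of the difference turned with repeated quantile normalization (0.04) and cyclic loess (0.12). H4c9 was at 7.59, 7.41 and 7.55 in controls and at 8.14, 6.85 and 7.82 in mutants, a difference of 0.09 ± 0.30. Mutant replicate 1 was its highest array and mutant replicate 2 its lowest, the reverse of H2bc3 and H2bc9, and the difference ran from −0.18, with mutant replicate 1 left out, to 0.46, with mutant replicate 2 left out.

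**Figure D2:**
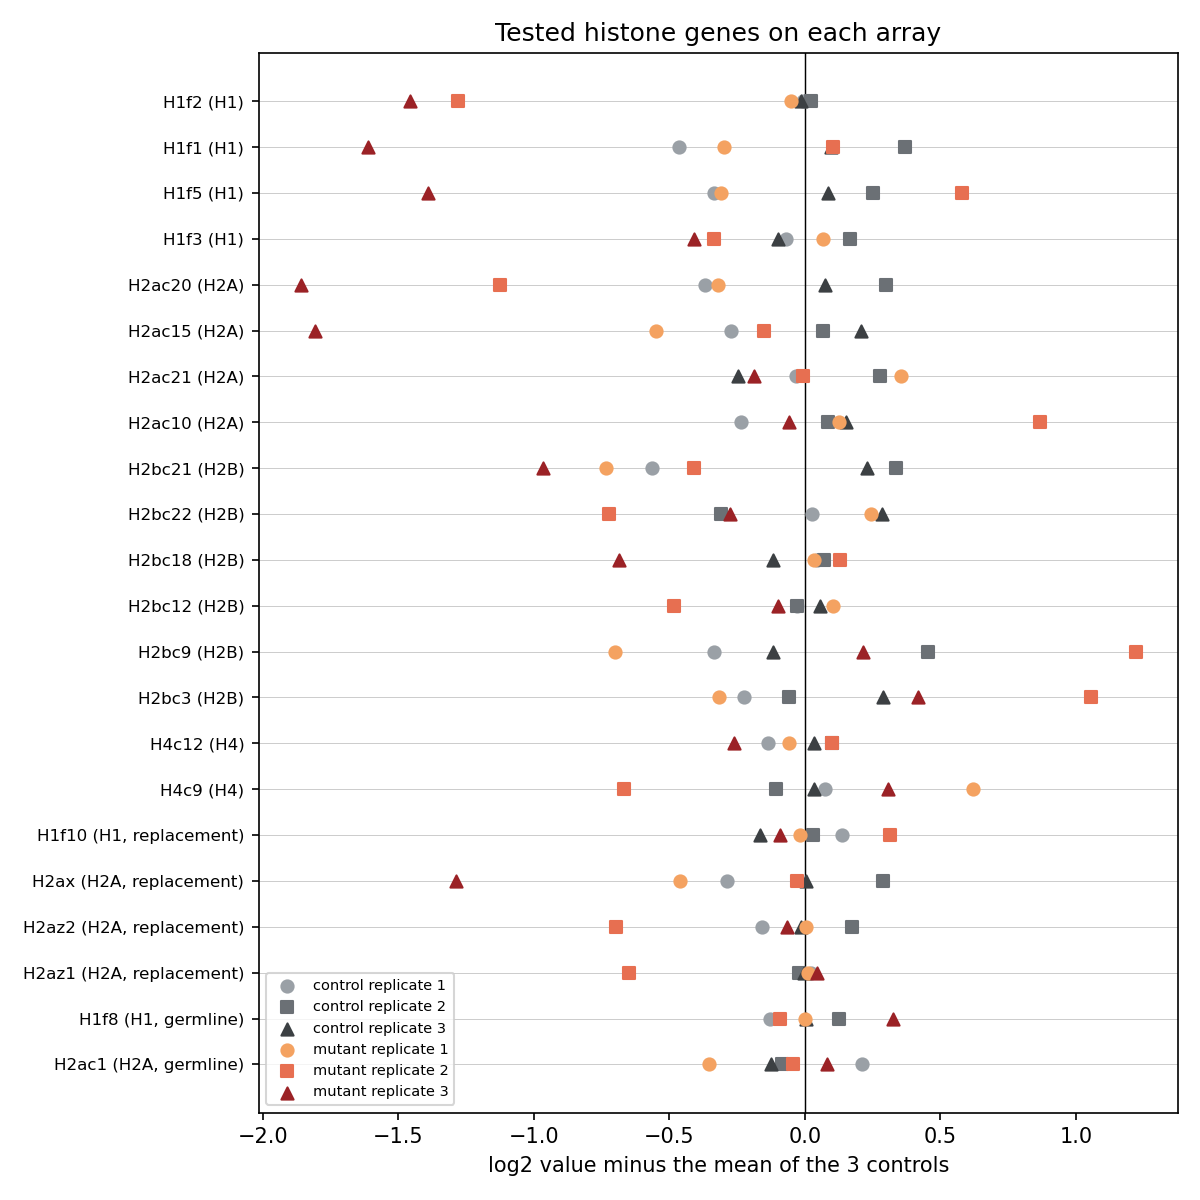
Log2 value minus the mean of the 3 controls for each of the 22 tested histone genes, with 1 point for each array. Mutant replicate 3 lies far to the left for H1f1, H1f2, H1f5, H2ac15, H2ac20 and H2ax, while mutant replicate 2 lies far to the right for H2ac10, H2bc3 and H2bc9.

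Replacement histones had lower mutant means in 3 of 4 genes, with a median of −0.23. H2ax, the gene of H2A.X, was at 10.76, 11.33 and 11.05 in controls and at 10.58, 11.02 and 9.76 in mutants. Mutant replicate 1 was just below the controls, mutant replicate 2 within them and mutant replicate 3 far below. The difference was −0.59 ± 0.30 (SE; adjusted p = 0.594 in limma; 0.00808 to 0.886 over the alternatives), and −0.25 without mutant replicate 3. The H2A.Z genes had another pattern, with the low value on mutant replicate 2: H2az2 was at 9.56, 9.89 and 9.70 in controls and at 9.72, 9.02 and 9.65 in mutants. Without that array the difference of H2az2 was −0.03 in place of −0.25 ± 0.20, and that of H2az1 was 0.03 in place of −0.20 ± 0.19. The linker variant gene H1f10 differed by 0.07 ± 0.15 and by −0.05 without mutant replicate 2.

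Of the germline forms, the oocyte linker gene H1f8 was tested and differed by 0.08 ± 0.15, and the testis gene H2ac1 by −0.11 ± 0.16. H1f8 had the lowest mean of the tested members (4.95), just above the level required for testing. The 10 untested members were the germline genes H1f6, H1f7 and H2bc1 and the cluster genes H2ac12, H2bc14, H4c1, H4c2, H4c8, H4c14 and H4c17. H4c1 was the nearest below that level, with a mean of 4.50. Low values could not be told from background in these data, so no statement is made on whether untested genes were expressed.

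Set side by side, the classes differed mainly on mutant replicate 3. Each array was given a class score, the median over tested replication-dependent members of their log2 distance from the control mean. The H1 score was −0.20, 0.21 and 0.03 among controls against −0.18, −0.12 and −1.42 among mutants. The H2A score was −0.26, 0.18 and 0.11 against −0.10, −0.08 and −0.998. On both, mutant replicates 1 and 2 lay within the range of the controls, and mutant replicate 3 was far below it. The H2A score does not stand for the whole class there, as only 2 of 4 genes lay below all controls. These were H2ac15 (−1.81) and H2ac20 (−1.86), while H2ac10 (−0.06) and H2ac21 (−0.19) lay within the controls. The H2B score was −0.13, 0.02 and 0.14 against −0.14, −0.14 and −0.19, and the H4 score was −0.03, −0.00 and 0.03 against 0.28, −0.28 and 0.02. Classes of 2 to 6 genes were not tested against each other.

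**Figure D3:**
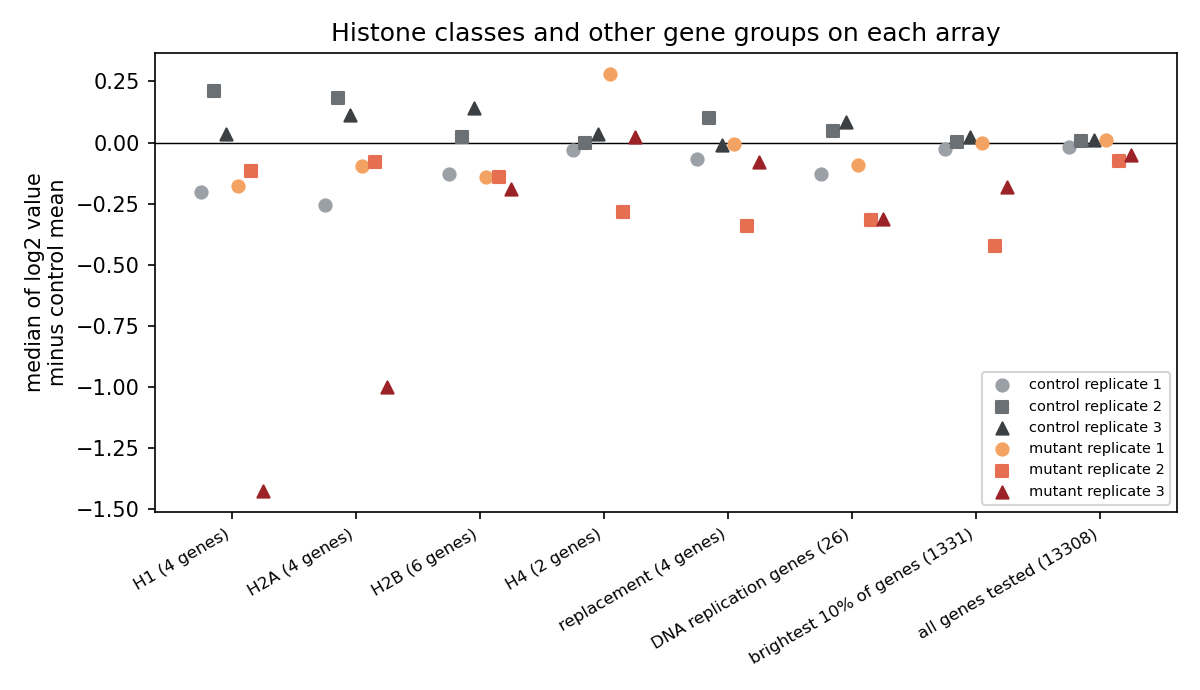
Median log2 distance from the control mean on each array, for replication-dependent histone classes, replacement histones, DNA replication genes, the brightest 10% of genes and all genes tested. The H1 and H2A scores of mutant replicate 3 are −1.42 and −0.998, and its DNA replication score is −0.31.

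Over the 16 tested replication-dependent members 11 had a lower mutant mean, against 57.5% of all genes tested. Their median difference was −0.20, against −0.04 over all genes tested and −0.21 over the brightest 10%. That median was −0.06 once mutant replicate 3 was left out, and −0.33 once mutant replicate 1 was. For H1 it was −0.12, and for H2A −0.09, with mutant replicate 3 left out, and for H1 −0.80 with mutant replicate 2 left out. The brighter 8 of the 16 members had a median of −0.01 and the dimmer 8 of −0.43. On mutant replicate 3, 10 of 16 members lay below all controls, against 40.5% of all genes tested, and 9 of 16 had their lowest value of the 6 arrays there, against 19.1%. On mutant replicate 2, 6 of 16 lay below all controls, against 45% of all genes tested, and on mutant replicate 1, 5 of 16, against 23.8%. Above all controls lay 3 of 16 on mutant replicate 1 (28.6% of all genes tested), 5 of 16 on mutant replicate 2 (30.9%) and 2 of 16 on mutant replicate 3 (24.5%). The highest value of the 6 arrays was on mutant replicate 2 for 5 of 16 (24.8% of all). Control replicate 1 was the lowest control for 10 of 16 (42.2% of all).

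Several other measures were low on mutant replicate 3, though not on that array alone. Beside the counts below, 57.5% of all genes tested and 86.0% of the brightest 10% had a lower mutant mean. DNA replication genes such as Pcna and the Mcm helicase genes had scores of −0.13, 0.05 and 0.08 in controls and −0.09, −0.32 and −0.31 in mutants, with 26 of 26 tested members lower and 0 past the adjusted threshold. Their scores on mutant replicates 2 and 3 were alike, as were those of H2B (−0.14 and −0.19). The scores of these arrays differed for H1 (−0.12 and −1.42), H2A (−0.08 and −0.998) and H4 (−0.28 and 0.02). Within H1 and H2A, H1f2, H1f3 and H2ac20 lay below all controls on both arrays. The relation of histone and DNA replication scores was not tested. B lineage markers had scores of −0.28, 0.19 and 0.09 in controls and −0.14, −0.26 and −0.50 in mutants, with 8 of 9 tested members lower (9 of 12 listed were tested). Scores of myeloid markers were 0.35, −0.11 and −0.13 against 0.45, −0.34 and 0.05, with 6 of 12 lower, and those of erythroid markers 0.29, −0.09 and −0.06 against 0.29, −0.16 and 0.01, with 2 of 7 lower. The remaining marker lists were CLP, with 8 of 8 tested members lower, T lineage (5 of 6), natural killer (4 of 5), megakaryocyte (0 of 5), and bone and stroma (4 of 6). CLP scores were −0.13, 0.09 and 0.00 in controls and −0.21, −0.27 and −0.31 in mutants, below all controls on each mutant array. In 4 of 8 CLP genes all mutants lay below all controls (9.99% of all genes tested). The part of cell makeup in the histone differences was not tested.

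On the 4 arrays with high Eif2s3y, which leave out control replicate 1 and mutant replicate 3, the median of the replication-dependent members was −0.11, that of H1 −0.25 and that of H2A −0.17. With Eif2s3y level as a block 0 members passed; each group holds 1 array with a low value, so the block cannot alter the differences themselves.

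Shared probe sets gave the only view of H3 genes. Of 45 probe sets that listed several genes with at least 1 histone gene, 3 repeated the values of another exactly and were left out, and 29 of the rest were above the level required for testing. Over the 22 of these that held replication-dependent genes, 16 had a lower mutant mean, against 57.5% of all genes tested, and the median difference was −0.13. Mutant replicate 3 was below all controls in 10 of 22, near the 40.5% of all genes tested. Mutant replicate 2 was below them in 6 of 22, against 45% of all. They were described by their values and not tested, because they cannot be assigned to single genes. The sets overlap in the genes they list (up to 13 each), and 15 of the 32 members are also listed on shared sets. Their counts are thus not counts of separate genes.

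Some shared sets had the pattern of H1f5 and H2ac15. A shared H2A set of 10 genes was at 7.39, 8.27 and 8.00 in controls and at 7.78, 8.15 and 4.70 in mutants. Another of 3 H2A genes was at 10.47, 10.79 and 10.75 in controls and at 10.46, 10.64 and 9.17 in mutants. In both, mutant replicate 3 lay far below the 5 other arrays. The brightest shared H3 set, of 8 genes, was at 9.97, 10.24 and 10.14 in controls and at 9.995, 10.13 and 9.48 in mutants, low on the same array by less. A shared H2B set of 4 genes was at 12.31, 12.46 and 12.48 in controls and at 12.35, 12.52 and 12.11 in mutants, so that it too had its lowest value there.

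Other shared sets ran in another direction. An H2B set of 3 genes was at 9.10, 7.10 and 8.26 in controls and at 10.10, 7.47 and 9.61 in mutants. An H2A set of 10 genes was at 6.56, 5.97 and 5.56 in controls and at 7.24, 5.63 and 7.14 in mutants. In these, control replicate 1 and mutant replicates 1 and 3 were high and mutant replicate 2 was low or level with the other controls. Unlike these, an H4 set of 6 genes had the array order of H1f5, lowest on mutant replicate 3. It was at 6.87, 7.48 and 7.32 in controls and at 7.16, 8.38 and 6.52 in mutants.

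Sets that list a gene of H3.3, the replacement form of H3, were lower in the mutant mean for 7 of 7, with a median of −0.39 and a range of −0.63 to −0.14. In all 7 both mutant replicates 2 and 3 lay below every control, and in 2 of 7 mutant replicate 1 did too. Over all genes tested, 45% lay below every control on mutant replicate 2, 40.5% on mutant replicate 3 and 9.99% on all 3 mutants. Among the brightest 10% of genes these arrays were low as well, with 77.5% below every control on mutant replicate 2 and 64.3% on mutant replicate 3. The median score of the H3.3 sets was −0.06, −0.03 and 0.08 in controls and 0.07, −0.50 and −0.31 in mutants, beside −0.00, −0.42 and −0.18 for the brightest genes on the mutant arrays. These sets also list genes outside the H3.3 family, and they overlap in the genes they list, so they are not separate measurements of 7 genes.

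**Figure D4:**
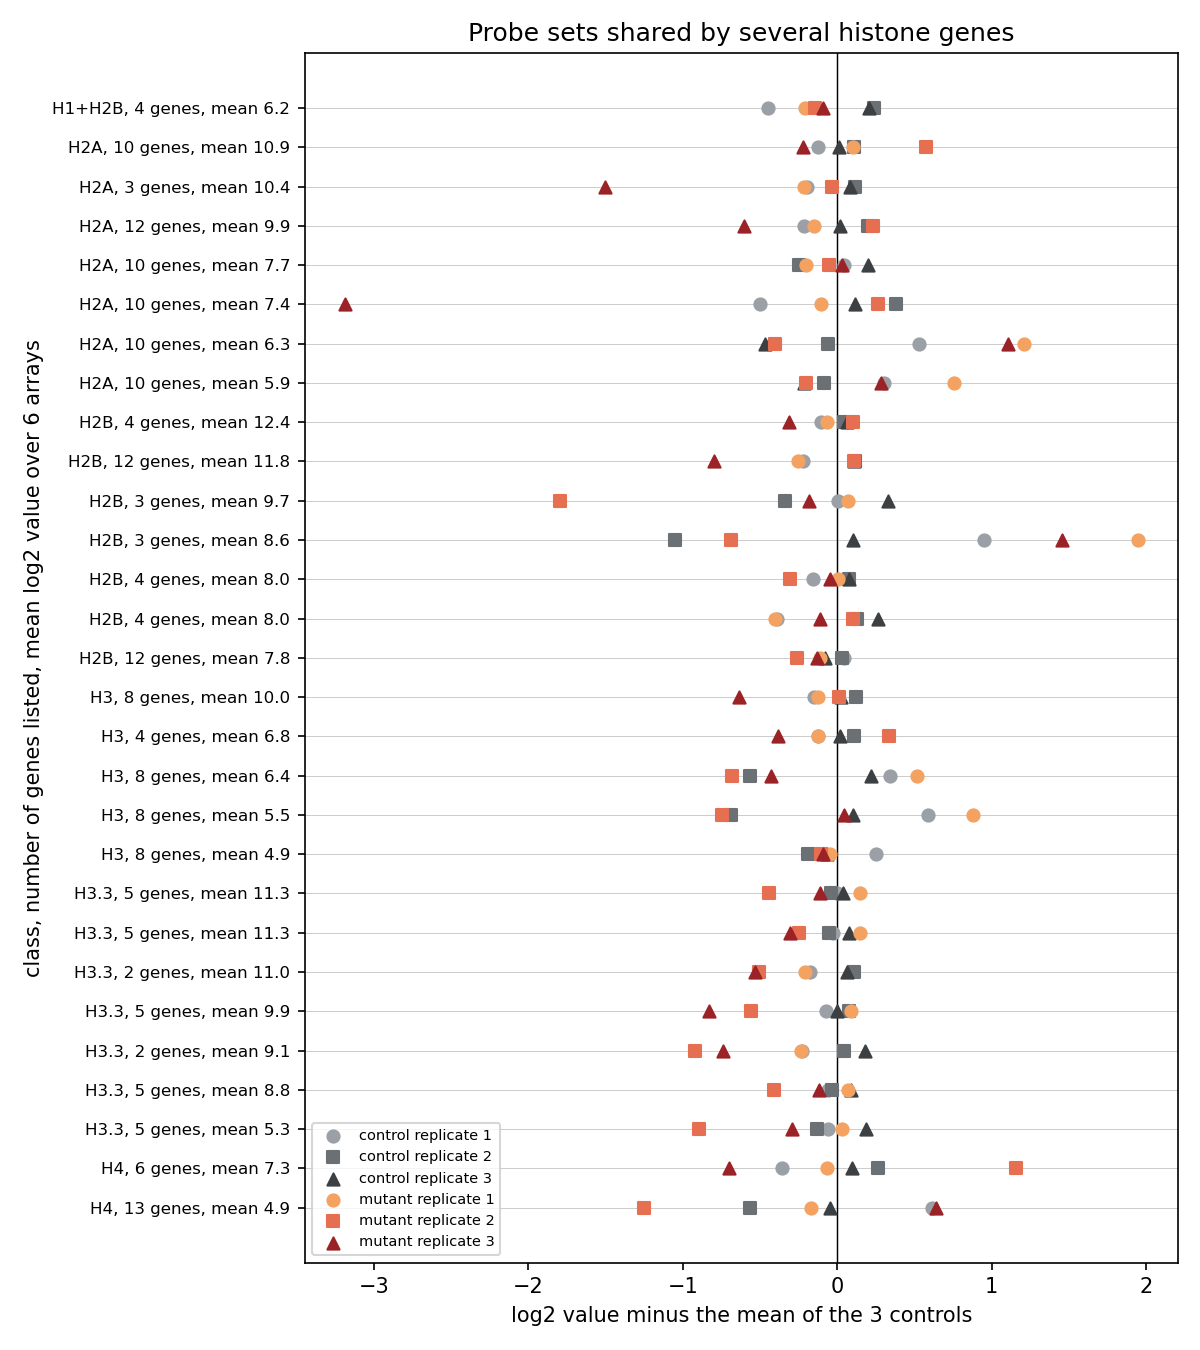
Log2 value minus the mean of the 3 controls for the 29 distinct shared probe sets above the level required for testing, with 1 point for each array. Rows give the class, the number of genes listed and the mean over the 6 arrays. H3.3 sets are low on mutant replicates 2 and 3, while 1 H2A set reaches far to the left on mutant replicate 3.

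Genes that make and process histone messages were mostly lower in the mutant mean. In a list of 17 such genes 15 were tested, of which 14 were lower in the mutant mean (median −0.20) and 0 passed the threshold. Over all genes tested 57.5% were lower (median −0.04), and over the brightest 10% of genes 86.0% (median −0.21). Slbp, which encodes the stem-loop binding protein of replication-dependent histone messages, was at 8.59, 8.82 and 8.88 in controls and at 8.54, 8.42 and 8.26 in mutants. The groups of Slbp, and of no other gene among the 15, did not overlap (9.99% of all genes tested had all mutants lower). The difference was −0.36 ± 0.13 (SE), with an adjusted p of 0.594 in limma. The coactivator gene Npat and its partner Casp8ap2, which act at histone gene loci, differed by −0.32 ± 0.26 and −0.39 ± 0.27, and by 0.00 and −0.06 without mutant replicate 2. The U7 particle gene Lsm10 differed by −0.40 ± 0.21, and by −0.16 without mutant replicate 2. The cleavage factor gene Cpsf2 differed by −0.27 ± 0.16, and by −0.17 without that array.

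Histone chaperone genes, whose products carry new histones to DNA, were lower in the mutant mean for 18 of 20 tested members of 22 listed, with a median of −0.17 and 0 past the threshold. Of all genes tested 57.5% were lower, and of the brightest 10% of genes 86.0%, with a median of −0.21. Chaf1b, a subunit of chromatin assembly factor 1, was at 6.88, 7.18 and 6.998 in controls and at 6.67, 6.36 and 6.47 in mutants, a difference of −0.52 ± 0.14 (SE; adjusted p = 0.594 in limma). Hira, the chaperone of H3.3, was at 7.30, 7.36 and 7.49 in controls and at 7.13, 7.12 and 6.91 in mutants. The mutants lay below all controls in 5 of 20 tested chaperone genes, Chaf1b, Hira and Asf1a among them, against 9.99% of all genes tested. In Chaf1b and Hira all 3 mutants were low, unlike most of the histone genes. Asf1a, which hands H3 and H4 to other chaperones, differed by −0.66 ± 0.30, and by −0.27 without mutant replicate 2. Its relative Asf1b (−0.26 ± 0.14) and the assembly factor subunit gene Chaf1a (−0.05 ± 0.18) differed less.

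Histone variants outside the symbol series were tested for 5 of 10 listed genes, and 4 of 5 had a lower mutant mean, against 57.5% of all genes tested. Their median difference was −0.02, against −0.04 over all genes tested. Macroh2a1 (−0.02) and H4f16 (−0.02) were among the lower ones. Cenpa, the H3 variant of centromeres, was at 8.62, 8.81 and 8.80 in controls and at 8.62, 7.85 and 8.27 in mutants, a difference of −0.50 ± 0.19 (SE; adjusted p = 0.594 in limma) that became −0.30 without mutant replicate 2. H2aj differed by −0.33 ± 0.20, and by −0.13 without that array. Macroh2a3 differed by 0.12 ± 0.21. H4f16, an H4 gene outside the main clusters that was named here after its values were seen, was at 7.01, 7.43 and 7.17 in controls and at 7.15, 8.42 and 5.98 in mutants, with the array order of H1f5.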

How the data were processed

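Progenitor RNA of 3 control and 3 mutant samples went through NuGen Ovation V2 cDNA amplification and biotin labelling before hybridisation, per the labels' protocols. The authors made the log2 values with RMA, per the submitters' processing notes, and its version is not given in the sources used.

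Of 41345 probe sets, 23521 had 1 gene symbol in a platform annotation table, 1814 had several and 16010 had none. For each of 22180 genes the brightest probe set by mean over the 6 arrays was kept, and 13308 genes were tested after leaving out the dimmest 40% (mean under 4.84). All 32 histone symbols matched RefSeq, with 0 changed. The group difference was fitted by limma 3.58.1 (R 4.3.3; moderated 2-sided test; p-values adjusted by Benjamini-Hochberg over all tested genes), which also gave the SE and was tested on simulated data. Medians and counts over lists carry no test. Promoter sequences are RefSeq's, build GRCm38.p6, and figures were drawn with matplotlib 3.10.9.

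The members, lists and alternatives were chosen with earlier results of these data known. Named histone genes were, by class, the 3 with the lowest p, the brightest, those whose groups did not overlap, all replacement and germline forms, and those nearest the filter; H2ac10, H2ac21, H2bc9 and H2bc18 were added so that each tested member is given. In related lists the 3 genes with the lowest p and a few fixed regulators were named. H1f7, H1f8 and H1f10 were placed among germline and replacement forms after the files were read. Alternatives were no or a stricter filter (60%), the mean of probe sets, every probe set alone, other variance priors, an unmoderated test, array weights, repeated quantile normalization, cyclic loess, median centring, other thresholds, a block for replicate number, leaving out each array and, chosen after seeing the data, Eif2s3y level.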

Additional observations from a re-analysis of the deposited data

How the results depend on the processing

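Histone genes past the adjusted threshold stayed at 0 under every alternative except array weights (9) and leaving out 1 array (0 to 1). The 1 was H1f2 without mutant replicate 1. Of all genes tested, 22.2% passed with array weights and 0.0301% without mutant replicate 1. In the main fit 3 histone genes had an unadjusted p under 0.05. The count with a lower mutant mean ran from 10 of 14, with the stricter filter, to 18 of 32, with no filter, beside 15 of 22. The counts kept within 1.5 times of 15, but their totals differed. The H2A median turned to 0.048 with no filter and was −0.93 with array weights, and the H1 median was −1.34 with array weights. The H2B median was −0.031 with repeated quantile normalization, −0.020 with cyclic loess, −0.056 on the 4 arrays with high Eif2s3y, and −0.28 to −0.054 on leaving out 1 array. The median of the replication-dependent members was −0.010 for the brighter and −0.43 for the dimmer members, −0.073 with no filter, −0.12 with cyclic loess, −0.11 on those 4 arrays and −0.33 with array weights, against −0.20. The H2A median was also −0.082 with every probe set alone, −0.21 with cyclic loess and −0.17 on the 4 arrays, and the H4 median turned to −0.056 with centring and −0.017 on the 4 arrays. The largest array weight was that of mutant replicate 3 (5.20). Signs also turned for H1f10 (−0.038), H2ac1 (0.096) and H2az1 (0.020) with array weights, for H4c12 with repeated quantile normalization (0.039) and for H4c12 (0.12), H1f8 (−0.0073) and H2bc12 (0.018) with cyclic loess, and for H1f8 on the 4 arrays (−0.11). On leaving out 1 array, H1f5 ran from −0.85 to 0.14, H1f8 from −0.047 to 0.16, H1f10 from −0.055 to 0.15, H2ac1 from −0.20 to 0.018, H2az1 from −0.32 to 0.027, H2bc12 from −0.29 to 0.0025, H4c12 from −0.16 to 0.021 and H4c9 from −0.18 to 0.46. The cause of these changes was not tested. With the replicate number as a block 0 histone genes passed; in this balanced layout the block cannot alter the differences. Deviations of same-numbered samples correlated at 0.13, 0.20 and −0.13. With no known pair to compare with, these values cannot show whether same-numbered samples were paired. Near-identical histone genes can hybridise to each other's probes, and RMA values carry no detection call, which limits all low values.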
